A study of Mus musculus with 5 samples.

Results

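Interferon-stimulated genes were examined in the luminal layer of the mouse uterus before and after attachment of the blastocyst. The set held 44 genes, chosen by name as induced by interferons in many cell types, and it was looked up by gene symbol in a table of 23420 genes. A row was found for 43 of them, and these 43 were among the 12918 genes that passed the filter on low values, a mean of at least 1 CPM (counts per 1e+06 counts of a library) over the 5 libraries. Ifi27 had no row under that symbol.

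Each library was wild type, of the C57BL/6N strain, and was made from RNA of the luminal layer of the pregnant uterus. There was 1 library each of day 3 morning, day 4 morning and day 4 evening, where day 1 is the morning of the vaginal plug. A pair of libraries came from day 5 morning, after attachment. In that pair, 1 library held the layer away from the attached embryo (called away below) and 1 the layer surrounding it (called around below). The sample descriptions add an M pole for the first and an AM pole for the second, so place relative to the embryo and pole cannot be told apart. Day 5 mice had received Chicago blue dye intravenously to show the attachment sites. No genotype or drug differed between the groups, and how many mice stood behind each of these libraries is not stated. With 1 library per condition no difference below has a replicate check and no p-value was computed.

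The totals ranged from 15334674 to 19529491 counts, with 15274 to 15888 genes counted at least once. The 10 luminal epithelial markers, keratins among them, were above 3 counts in each library. Their summed level was lowest away, at 4377 CPM, and highest around, at 8273 CPM. Around the embryo 7 of the 10 were at their highest and 1 at its lowest. The around library stood apart in other tissues' markers. Pou5f1, Cdx2, Nanog and Fgf4, genes of the blastocyst, had no count in the other 4 libraries and 68, 22, 10 and 13 counts around the embryo. All 12 embryo and trophoblast markers listed were at their highest there, but not all were particular to it. Sox17 had 39217 counts around and 14211 to 38230 in the other 4 libraries. Elf5 had 10 to 148 and Eomes 23 to 62 counts in those 4. Smooth muscle markers summed to 395 CPM around the embryo and to between 10.9 and 31.8 CPM elsewhere. Des alone gave 354 of the 395 CPM, and the next highest, Acta2, was at 15.8 CPM. All 6 of these markers were at their highest around the embryo. The 6 endothelial markers summed to 101 CPM around and to between 16.2 and 51.1 CPM elsewhere. Of these 6, 2 were at their highest around, Cdh5 (1229 counts, 48 to 171 elsewhere) among them, and 2 at their lowest. The 7 glandular markers with a row summed to 245 CPM on day 3 and to between 4.50 and 31.1 CPM in the other libraries. Aldh1a1 alone gave 241 of the 245 CPM. The 20 leukocyte markers with a row summed to 232 CPM around and to between 489 and 567 CPM in the other 4 libraries. There 12 of the 20 were at their lowest, with Ncr1 at 0 counts, and 3 at their highest, namely S100a8 (955 counts, 4 to 21 elsewhere), Cd68 (670 counts, 158 to 308 elsewhere) and S100a9 (35 counts, 3 to 30 elsewhere). In tissue pieces such as these, fewer cells of a type and less RNA per cell cannot be told apart.

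Interferons are secreted proteins, many of which cells release when they sense viral nucleic acid. Type I interferons bind a receptor made of Ifnar1 and Ifnar2, whose kinases Jak1 and Tyk2 phosphorylate Stat2. Stat2 acts with Irf9 at the interferon-stimulated response element (ISRE) near target genes, while interferon gamma acts through Jak1 and Jak2 and the gamma-activated site. The targets include sensors of viral RNA, factors that feed the response, antiviral effectors and the proteins that present antigens. In the female reproductive tract, epithelial interferon epsilon is made without infection, and in ruminants the trophoblast itself secretes an interferon early in pregnancy.

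RefSeq promoter windows on GRCm38.p6, 250 bases before to 50 bases after a gene's start, were present for 34 members. The ISRE core was searched on both strands as GAAA, any NN and again GAAA, and was in the windows of 18 of the 34 members (52.9%), against 3.99% of 27025 genes. With the bases before the start alone, the shares were 44.1% and 3.46%. The gamma-activated site was searched as TTCNNNGAA, which reads alike on both strands, and was in 10 of the 34 (29.4%), against 9.55% of all genes. The motifs were searched separately and their matches may overlap, and a match describes letters, not a bound site. The 6 stretches here, each 60 bases long and printed 5′ to 3′ on the gene's strand, are shown because these genes stand for the different courses described below. Capitals mark matches to the ISRE core or its reverse complement.
Isg15: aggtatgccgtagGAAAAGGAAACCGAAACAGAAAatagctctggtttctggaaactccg
Ifit1: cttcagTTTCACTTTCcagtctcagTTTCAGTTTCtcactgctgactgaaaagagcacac
Ifit3: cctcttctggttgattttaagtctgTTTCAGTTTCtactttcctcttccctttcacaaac
I830012O16Rik: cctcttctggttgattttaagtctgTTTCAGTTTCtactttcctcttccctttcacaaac
Igtp: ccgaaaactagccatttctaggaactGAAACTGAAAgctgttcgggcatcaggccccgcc
Oas3: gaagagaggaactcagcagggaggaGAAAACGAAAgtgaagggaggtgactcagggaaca

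The Isg15 stretch lies at chr4:156200850-156200909 on the minus strand and that of Oas3 at chr5:120777700-120777759, also on the minus strand. The other 4 are on the plus strand, at chr11:58199496-58199555 for Igtp and, on chromosome 19, at chr19:34640779-34640838 for Ifit1, chr19:34583382-34583441 for Ifit3 and chr19:34607778-34607837 for I830012O16Rik. All 6 lie before the RefSeq start of their gene and overlap no GENCODE exon. Ifit3 and I830012O16Rik had the same 60 bases, part of an identical run of 169 bases between their windows.

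By the members' median, the level was highest on the evening of day 4 and lowest around the attached embryo. Of the 43 members, 20 had their highest CPM on day 4 evening and 33 their lowest around the embryo. Neither count was made over all genes. The members' median CPM was 40.2 in the day 3 library, 32.9 and 53.7 in the morning and evening libraries of day 4, and 36.5 away and 15.0 around on day 5. Their summed CPM was instead highest on day 3, at 5797, then 5494 away, 4943 on day 4 evening, 4119 on day 4 morning and 3328 around. Without Ifitm1 and Ifitm3, the sum was highest on day 4 evening, at 3686 CPM, and lowest around, at 1113 CPM. Around the embryo 19 members were below 10 CPM, against 3 to 7 in the other libraries, also without a count over all genes. The stepwise order from day 4 evening through away down to around was met by 26 of 43 members (60.5%) and by 25.5% of the 12918 genes.

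**Figure D1:**
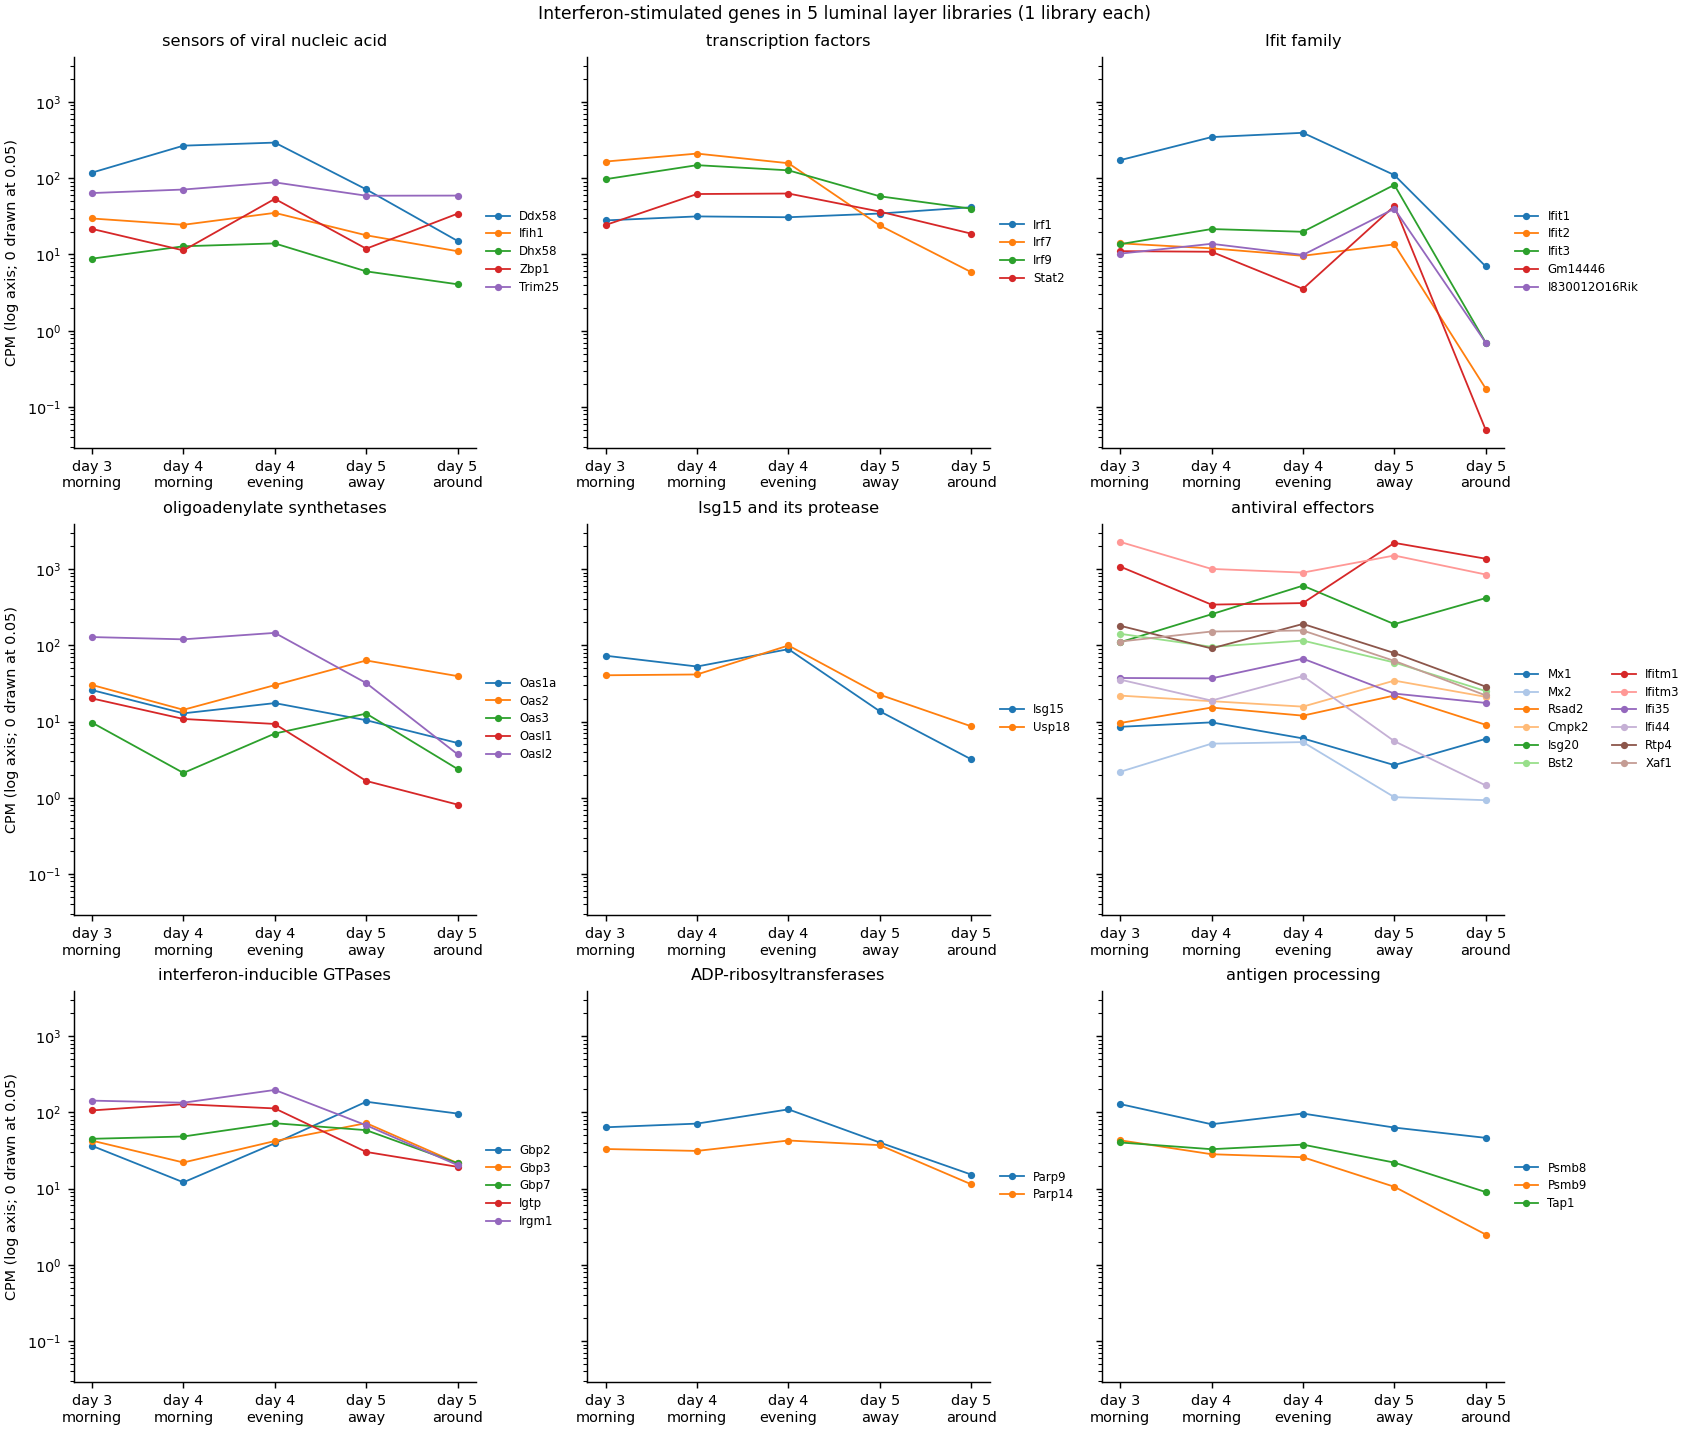
CPM of each member in the 5 libraries, with 1 panel for each of 9 roles. The vertical axes are logarithmic, each line is 1 gene, and a count of 0 is drawn at the bottom. Most lines are lowest in the library around the embryo, where 33 of 43 members have their minimum, a count not made over all genes.

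A change is the difference of log2 CPM after TMM scaling, with a prior count of 2 added to the counts, and a gene was called higher or lower when this difference lay beyond 1 in either direction, a factor of 2. Brackets after a change hold an exact 95% interval (Clopper-Pearson) for the log2 ratio of the counts compared, which covers counting error only. From day 3 to day 4 morning 5 members were called higher and 6 lower, where 7.41% and 11.5% of all genes were called. The median change of the members was -0.08, against 0.00 for all genes. The balance of this comparison depends on the scaling, with 1 higher and 12 lower by library totals and 4 higher and 12 lower by totals without Rn45s and Lars2. From day 4 morning to evening 8 were called higher and 1 lower, with 7.20% and 6.94% of all genes called, and the median change was 0.20 against 0.00.

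Day 5 differed with the place sampled. Away from the embryo, 8 members were higher and 14 lower than on day 4 morning, next to 15.0% and 14.3% of all genes. Their median change was -0.45, where that of all genes was 0.00. Around it 4 were higher and 29 lower, which is 67.4% of the members in the lower direction beside 22.6% of all genes, while 20.7% of all genes were higher. The median was -1.72, against -0.03 for all genes. Both day 5 comparisons share the day 4 morning library. Set directly against each other, the around library was higher than the away library for 3 members and lower for 23, with 13.3% and 15.0% of all genes called, and the median was -1.26 against -0.05. In the away library the leukocyte markers summed to 515 CPM, within the range of day 3 and day 4. Around the embryo that sum was lower than in any other library. The summed level of the 10 stromal markers was also lowest there, at 407 CPM against 549 to 631 CPM elsewhere, with 4 of the 10 at their lowest and 3, Hand2, Col1a1 and Pdgfra, at their highest. The part of these tissue markers in the changes around the embryo was not tested.

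**Figure D2:**
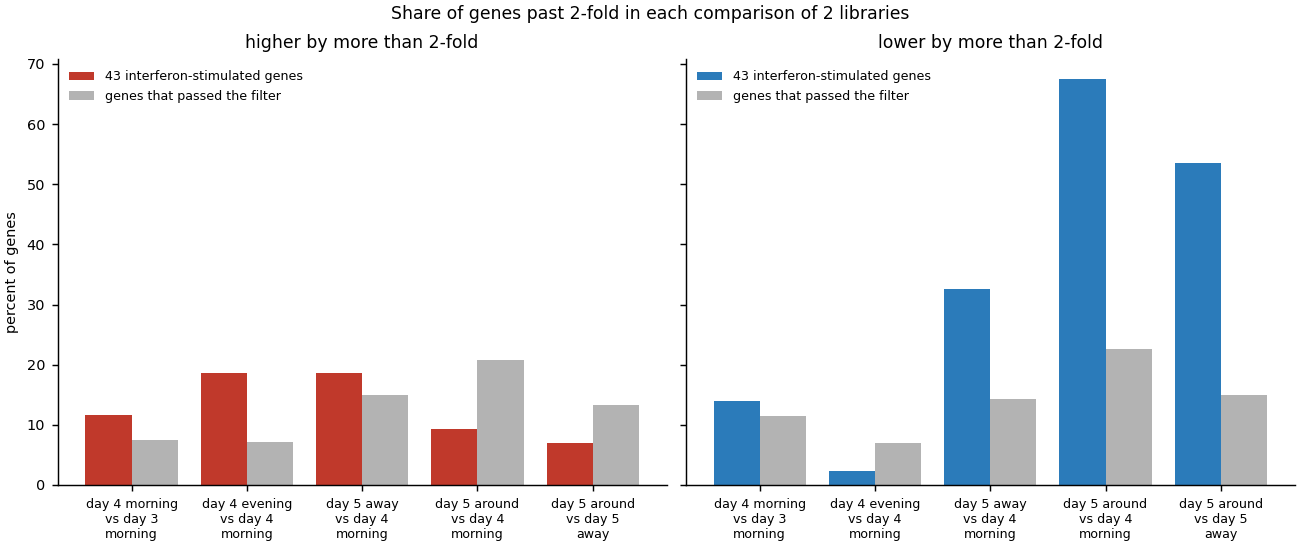
Percent of genes called higher (left panel) and lower (right panel) among the 43 members and among the 12918 genes, for each of the 5 comparisons. The bar that stands farthest from its background is the lower share around the embryo against day 4 morning, 67.4% of the members and 22.6% of all genes.

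In what follows, counts are given in the order day 3 morning, day 4 morning, day 4 evening, day 5 away and day 5 around, and changes on day 5 are from day 4 morning unless another library is named. The sensors of viral nucleic acid come first. Ddx58, which encodes the RNA helicase RIG-I that detects viral RNA ends, had 2058, 4803, 4643, 1332 and 259 counts. It rose by day 4 morning (1.17 [1.10, 1.25]), then was lower away (-1.90 [-1.99, -1.82]) and lower still around (-4.14 [-4.34, -3.97]). Ifih1, encoding the long double-stranded RNA sensor MDA5, had 515, 440, 556, 333 and 190 counts. Its call was reached around (-1.14 [-1.40, -0.90]) and not away (-0.45 [-0.67, -0.25]). Dhx58, the regulator of these helicases known as LGP2, was lower in both places, by -1.08 [-1.43, -0.76] away and -1.63 [-2.06, -1.26] around.

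Zbp1, a sensor of Z-form nucleic acid that can start necroptosis, differed from the helicases in being higher around than away. Like them, it had its highest CPM on day 4 evening. It had 376, 203, 849, 222 and 591 counts, high on day 4 evening and around the embryo and low on day 4 morning and away. It rose to day 4 evening (2.24 [2.02, 2.48]), and around the embryo it was above day 4 morning (1.59 [1.37, 1.84]) and above the away library (1.52 [1.30, 1.76]). Its level on day 4 evening exceeded that around the embryo. Trim25, a ubiquitin ligase that acts on RIG-I, was the steadiest sensor gene, with 1020 to 1397 counts in the 5 libraries and no change beyond 1.

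Among the transcription factors, those of the type I pathway were lower on day 5. Irf7, which drives further transcription of type I interferon genes, had 2875, 3782, 2490, 448 and 101 counts. The day 3 and day 4 libraries were high and both day 5 libraries low, by -3.13 [-3.28, -2.99] away and -5.14 [-5.47, -4.88] around. The last value is 35.2-fold. Irf9, the DNA-binding partner of Stat2, had 1688, 2666, 2009, 1081 and 687 counts. It was lower away (-1.36 [-1.46, -1.25]) and around (-1.89 [-2.02, -1.77]). Stat2 had 423, 1115, 997, 681 and 323 counts, with the lowest level around the embryo and the next lowest on day 3. It rose to day 4 morning (1.35 [1.19, 1.51]) and was lower around (-1.72 [-1.91, -1.55]), while away it stayed within the limit (-0.76 [-0.91, -0.63]). Irf1, the factor most tied to interferon gamma, was not called in any comparison and had its highest count, 717, around the embryo, with 486 to 642 elsewhere.

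The Ifit family, whose proteins bind foreign RNA and block its translation, held the 5 largest differences among the members between the day 5 libraries. Its 5 members lie in a row on chromosome 19, with Ifit2 at chr19:34550694-34576534, Ifit3 at chr19:34583529-34588982, Gm14446 (RefSeq name Ifit1bl1) at chr19:34592888-34601968, I830012O16Rik (RefSeq name Ifit3b) at chr19:34607957-34613401 and Ifit1 at chr19:34640889-34650009. Ifit1 had 2998, 6223, 6242, 2055 and 120 counts. It doubled by day 4 morning (1.00 [0.94, 1.07]), just past the limit for a call, and was lower away (-1.65 [-1.73, -1.58]) and around (-5.61 [-5.91, -5.38]). Around the embryo its level was 48.9-fold below day 4 morning.

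Ifit3, Gm14446 and I830012O16Rik took another course. Ifit3 had 237, 387, 314, 1527 and 12 counts, highest away and lowest around. It was above day 4 morning away (1.92 [1.76, 2.09]), below it around (-4.74 [-5.92, -4.13]), and 101-fold lower around than away (-6.66 [-7.83, -6.07]). For Gm14446 the counts were 192, 195, 56, 805 and 0. It was lower on day 4 evening (-1.59 [-2.07, -1.18]), higher away (1.98 [1.76, 2.22]), and around the embryo at least 62.3-fold lower than on day 4 morning and at least 248-fold lower than away, taking 3 counts for the 0. I830012O16Rik, with 178, 248, 156, 743 and 12 counts, was higher away (1.52 [1.32, 1.74]) and lower around (-4.10 [-5.28, -3.48]). These 3 genes were the members called in opposite directions in the day 5 libraries, each higher away and lower around, a pattern met by 67 of the 12918 genes (0.519%). The opposite pattern, lower away and higher around, was met by 95 of all genes (0.735%) and by 0 members.

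Ifit3 and I830012O16Rik cannot be fully separated by reads. Their GENCODE transcripts shared 521 stretches of 100 bases, which is 31.7% of those of Ifit3 and 27.4% of those of I830012O16Rik, and the sources do not say how reads with several alignments were counted. Gm14446 shared no such stretch with the other 4 genes. Ifit2 was a low gene with 152 to 253 counts in the first 4 libraries and 3 counts around. Its changes were 0.17 [-0.09, 0.44] away and -5.39 [-8.40, -4.54] around. Hence 5 of 5 family members were lower around, and away 3 were higher, 1 was lower and 1 was not called. Of all genes, 22.6% were lower around, and 15.0% were higher and 14.3% lower away. Ifit3 and I830012O16Rik are not independent entries in these counts.

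**Figure D3:**
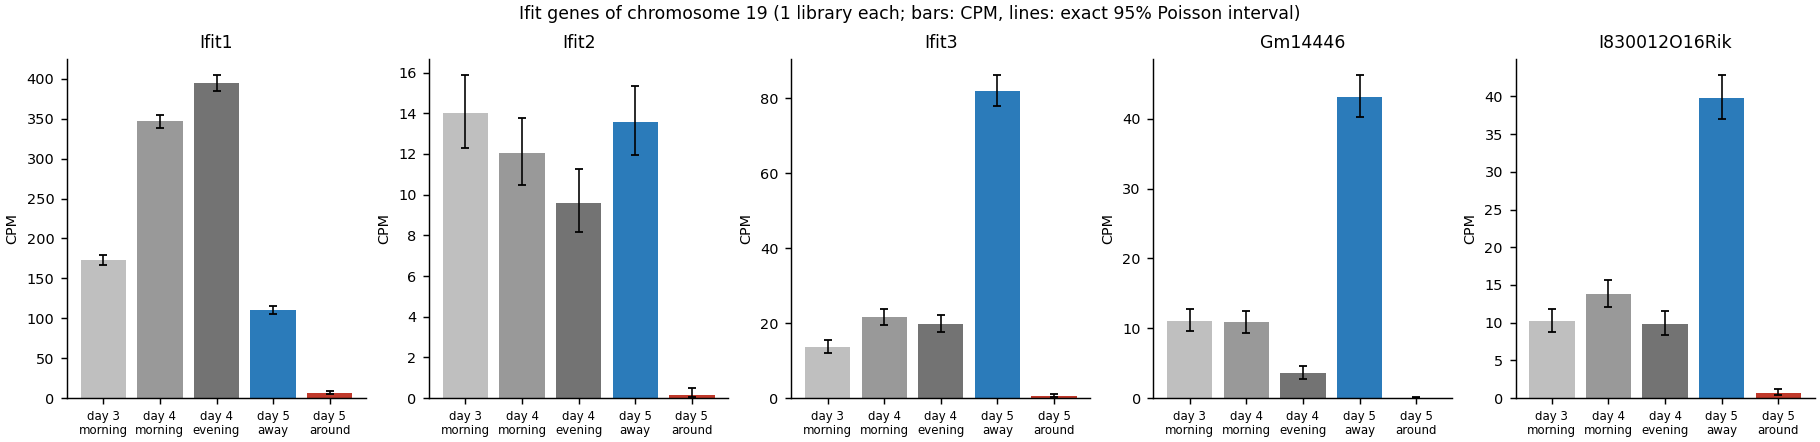
CPM of the 5 Ifit genes in each library, drawn as bars from 0 with lines for the exact 95% Poisson interval of the counts (counting error only). Ifit3, Gm14446 and I830012O16Rik peak away from the embryo, Ifit1 on day 4, and each gene is lowest around the embryo.

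The oligoadenylate synthetases make the messenger that switches on RNase L, and they divided by gene. Oas2 had 524, 256, 475, 1179 and 679 counts. It dipped on day 4 morning (-1.08 [-1.30, -0.86]) and was higher both away (2.14 [1.95, 2.35]) and around (1.46 [1.26, 1.68]). Oas3 followed the same dip at a lower level (-2.13 [-2.74, -1.68]) and was higher away (2.52 [2.09, 3.12]) but not around (0.16 [-0.50, 0.85]). Oas1a had 449, 230, 276, 194 and 90 counts, falling to day 4 morning (-1.01 [-1.25, -0.78]) and lower around (-1.27 [-1.66, -0.94]).

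The synthetase-like genes, whose products carry ubiquitin-like domains, were lower in both places. Oasl2 had 2227, 2150, 2302, 596 and 64 counts, level over the first 3 libraries, then lower away (-1.90 [-2.04, -1.77]) and around (-4.97 [-5.39, -4.65]). Oasl1, a restrainer of Irf7 translation, was lower away (-2.62 [-3.30, -2.15]) and around (-3.56 [-4.63, -2.95]). Thus Oas2 and Oas3 stood opposite to Oasl1 and Oasl2 in the away library.

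Isg15 encodes a ubiquitin-like protein that is joined to other proteins, and Usp18 the protease that removes it and also dampens signalling at Ifnar2. Isg15 had 1268, 946, 1408, 254 and 55 counts. It was lower away (-1.94 [-2.16, -1.75]) and around (-4.00 [-4.46, -3.65]). Usp18 had 702, 744, 1573, 419 and 149 counts, highest on day 4 evening, where it was above the morning (1.26 [1.14, 1.39]). Around the embryo it was lower (-2.24 [-2.52, -2.00]), and away its change was -0.88 [-1.06, -0.71].

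The antiviral effectors ranged widely in level. Per length of gene, in RPKM (counts per 1e+06 counts and per kilobase), the 2 highest members by mean over the libraries were Ifitm3 at 2015 and Ifitm1 at 1274, followed by Isg20 at 269 and Bst2 at 114. The lowest was Mx2 at 1.21. Ifitm1 and Ifitm3 encode membrane proteins that hinder the fusion of enveloped viruses. Ifitm1 had 18735, 6135, 5660, 41147 and 23536 counts, low on day 4 and high on day 3 and day 5. It fell to day 4 morning (-1.66 [-1.70, -1.62]) and was higher away (2.69 [2.65, 2.73]) and around (interval [1.96, 2.04]). Ifitm3 had 39460, 18040, 14219, 28087 and 14609 counts, fell to day 4 morning (-1.18 [-1.20, -1.15]), and was not called on day 5, with changes of 0.58 away and -0.24 around.

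Isg20, an exonuclease that degrades RNA, had 1905, 4585, 9586, 3533 and 7169 counts. It rose to day 4 morning (1.22 [1.14, 1.30]), rose again to the evening (1.25 [1.20, 1.30]), and was higher around than away (1.14 [1.08, 1.19]). Together with Zbp1 and Mx1 it made up the 3 members that were higher around than away, of which Zbp1 stayed past the limit when library totals set the scale. Rsad2, the radical enzyme viperin that makes a chain-ending nucleotide, had 166, 274, 189, 409 and 156 counts. It was lower around than away (-1.26 [-1.55, -1.01]), and against day 4 morning neither place was called. Cmpk2, its neighbour with a nucleotide kinase product, had 248 to 642 counts, the highest also away, and no change beyond 1.

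Bst2, the tetherin that holds budding virus at the cell surface, had 2458, 1717, 1824, 1109 and 432 counts and was lower around (-1.93 [-2.09, -1.78]). Ifi44 had 616, 338, 624, 103 and 25 counts. It rose to day 4 evening (1.06 [0.87, 1.26]) and was lower away (-1.75 [-2.10, -1.45]) and around (-3.60 [-4.34, -3.11]). Rtp4, named as a receptor transporter, showed the same evening rise (1.07 [0.98, 1.15]) with 3133, 1634, 3016, 1477 and 494 counts, and it was lower around (-1.66 [-1.81, -1.52]) and not away (-0.20 [-0.30, -0.10]). Xaf1, a partner of the apoptosis inhibitor Xiap, had 1946, 2723, 2473, 1165 and 379 counts. It stepped down from day 4 to away (-1.28 [-1.38, -1.18]) and further around (-2.78 [-2.94, -2.63]). Ifi35 had 647, 661, 1057, 434 and 302 counts and reached a call around (-1.06 [-1.27, -0.87]).

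The Mx genes, which encode dynamin-like GTPases, were low, with 50 to 175 counts for Mx1 and 16 to 92 for Mx2. C57BL/6 mice carry defective alleles of both, and GENCODE lists Mx2 as a polymorphic pseudogene. Mx1 was lower away (-1.82 [-2.35, -1.40]) and not around (-0.71 [-1.09, -0.36]). Mx2 was lower in both, by -2.21 [-3.13, -1.61] and -2.33 [-3.33, -1.69].

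The interferon-inducible GTPases, which take part in defence against intracellular microbes, did not share 1 course. Of the guanylate-binding proteins, Gbp2 had 632, 217, 622, 2570 and 1660 counts. It was higher away by 3.50 [3.31, 3.72], or 11.3-fold, and around by 2.98 [2.79, 3.21]. Gbp3 had 739, 395, 665, 1347 and 371 counts, was higher away (1.71 [1.55, 1.88]) and returned around to the level of day 4 morning (-0.03 [-0.24, 0.18]). Gbp7 had 781, 866, 1139, 1089 and 370 counts and was lower around (-1.16 [-1.35, -0.99]). These genes are neighbours on chromosome 3, and each of their promoter windows held the ISRE core.

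The immunity-related GTPases Igtp and Irgm1 were lower around the embryo. Igtp had 1841, 2297, 1781, 564 and 332 counts, lower away (-2.08 [-2.22, -1.95]) and around (-2.72 [-2.90, -2.56]). Irgm1 had 2475, 2403, 3113, 1262 and 350 counts. It was lower around (-2.71 [-2.88, -2.56]), and away it lay just inside the limit (-0.98 [-1.08, -0.88]).

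Both ADP-ribosyltransferases were lower around the embryo and not called away. Parp9, which works with the ubiquitin ligase Dtx3l, had 1106, 1278, 1731, 749 and 263 counts, with changes of -0.82 [-0.96, -0.69] away and -2.21 [-2.42, -2.03] around. The antisense gene Dtx3l covers 9.37% of its exon bases, and since the strand setting of the counting was not stated these reads cannot be told apart. Parp14 had 574, 560, 676, 692 and 196 counts and was lower around (-1.44 [-1.70, -1.22]).

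In antigen processing, Psmb9, a catalytic subunit of the immunoproteasome, had 747, 507, 408, 197 and 43 counts. It was lower away (-1.41 [-1.66, -1.18]) and around (-3.44 [-3.98, -3.05]). Psmb8, another catalytic subunit of that particle, had 797 to 2230 counts and was not called in any comparison, with a change around of -0.59 [-0.72, -0.46]. Tap1, which carries peptides into the endoplasmic reticulum, had 699, 590, 597, 409 and 155 counts and was lower around (-1.85 [-2.13, -1.61]).

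**Figure D4:**
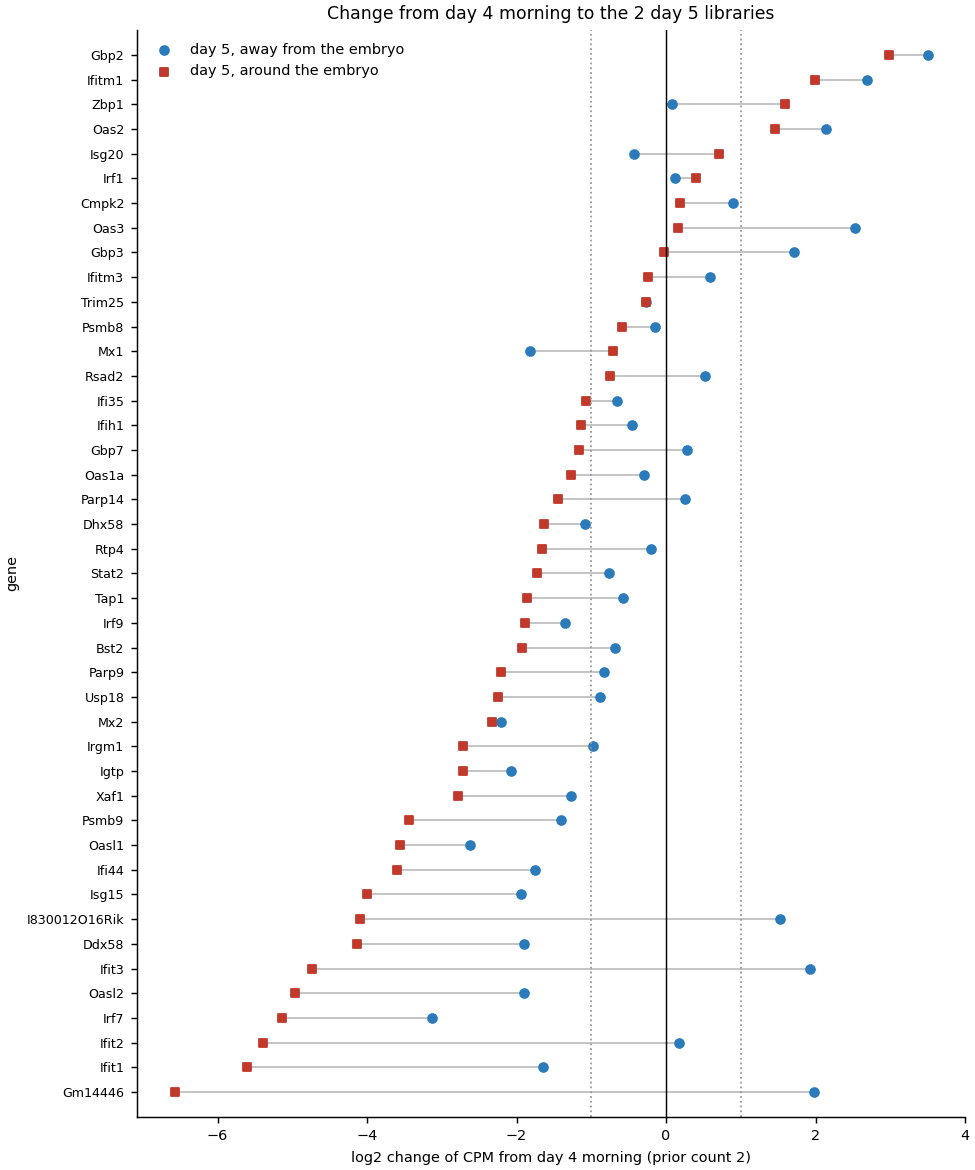
Log2 change from day 4 morning of each of the 43 members, away from the embryo and around it, joined by a line. Dotted lines mark a change of 1 in either direction. The point around the embryo lies to the left of the point away for 38 of 43 members, a count not made over all genes. The median of this difference was -1.26 for the members and -0.05 for all genes. Gm14446, with 0 counts around, is drawn at a value that depends on the prior count of 2.

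Sorted by both places, 13 members were lower away and around, among them Irf7, Ifit1, Isg15, Ddx58 and Oasl2, where 10.8% of all genes did so. Another 13 were lower around and not called away, among them Stat2, Usp18, Irgm1 and Tap1, next to 11.3% of all genes. Oas2, Ifitm1 and Gbp2 were higher in both, Oas3 and Gbp3 higher away alone, Zbp1 higher around alone and Mx1 lower away alone. Over all genes, 10.9% were higher in both, 3.58% higher away alone, 9.06% higher around alone and 2.75% lower away alone. Oas2, Oas3, Ifitm1, Gbp2 and Zbp1 had their lowest level on day 4 morning, the earlier library of both comparisons. The remaining 7 members, Trim25, Irf1, Rsad2, Cmpk2, Isg20, Ifitm3 and Psmb8, were called in neither, as were 50.4% of all genes.

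Members with and without a match to the ISRE core had similar median changes around the embryo and different ones away, with no test made. The median change around was -1.82 for the 18 members with a match and -1.87 for the 16 without. Away, the medians were -0.01 and -0.62, with 6 higher and 4 lower among the 18, and 1 higher and 7 lower among the 16. Of all genes, 15.0% were higher and 14.3% lower away. The 6 were Gbp2, Gbp3, Gm14446, I830012O16Rik, Ifit3 and Oas3. Gbp2 and Gbp3 are neighbours, as are the Ifit genes among them, so the 6 are not independent. Oas2, higher away, had no promoter window. Isg15, Ifit1 and Igtp, whose stretches are printed above, were lower in both places, while Ifit3, I830012O16Rik and Oas3 were higher away.

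The ligands and receptors of the pathway came next. Of 10 interferon genes listed, Ifne, encoding interferon epsilon, passed the filter. It had 187, 147, 343, 58 and 196 counts, higher on day 4 evening (1.39 [1.12, 1.69]), lower away (-1.36 [-1.86, -0.95]) and higher around than away (1.83 [1.44, 2.32]). Ifna1, Ifna2, Ifna4, Ifnb1 and Ifnl2 had 0 counts in each library, which allows up to 0.161 to 0.190 CPM by a floor of 3 counts, and Ifng had 4 counts away and 0 in the others. Of 6 receptor genes, 1 (16.7%) was lower away and 1 (16.7%) higher around, near the 14.3% and 20.7% of all genes. Ifnar1 had 963, 832, 781, 1314 and 1183 counts and no change beyond 1. Ifngr1, of the interferon gamma receptor, was higher around (1.42 [1.30, 1.56]) with 987, 652, 502, 1332 and 1682 counts. Ifngr2, the other chain of that receptor, had 4412, 4585, 2530, 1955 and 2890 counts and was lower away (-1.28 [-1.36, -1.21]) and not called around (-0.61 [-0.67, -0.54]).

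Between receptor and targets, Jak2 and Stat3 moved in different directions. Jak2 had 6796, 13271, 8002, 2740 and 1176 counts and was lower away (-2.33 [-2.39, -2.27]) and around (-3.43 [-3.52, -3.35]). Stat3, which carries the signal of Lif and related cytokines, had 1640, 4040, 4312, 6678 and 8830 counts and was higher around (1.19 [1.13, 1.24]). Socs3, its feedback inhibitor, had 58, 174, 1426, 432 and 2767 counts, higher around by 4.04 [3.83, 4.28].

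**Figure D5:**
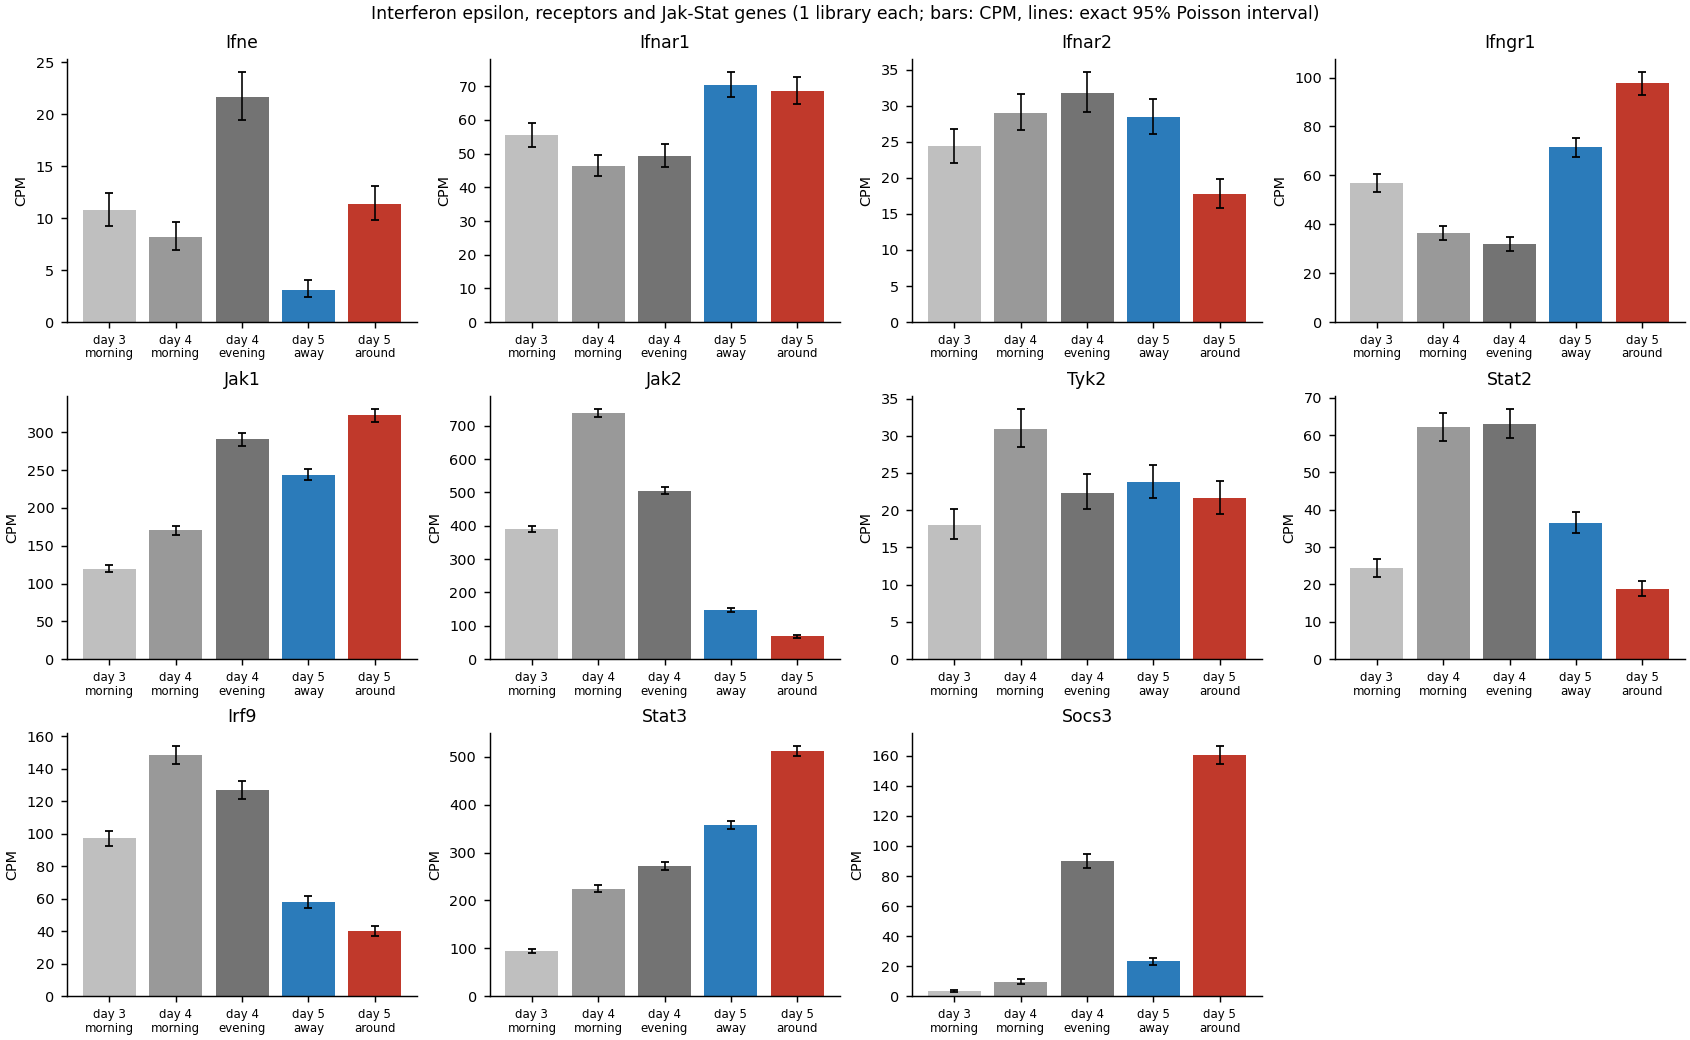
CPM of the interferon epsilon gene, 3 receptor genes, 3 kinase genes, 3 genes of signal-transducing factors and Socs3 in each library, drawn as bars from 0 with lines for the exact 95% Poisson interval of the counts. Stat2, Irf9 and Jak2 are lowest around the embryo, where Stat3 and Socs3 are highest.

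Over the wider pathway, 97 of 115 listed genes passed the filter. Away from the embryo 5 of them were called higher and 32 (33.0%) called lower, next to 15.0% and 14.3% of all genes. Around it, 8 were higher and 49 (50.5%) lower, next to 20.7% and 22.6%, with a median change of -1.03. Among the 67 other interferon-stimulated genes of that list 3 were higher and 40 (59.7%) lower around. Ifi47, an immunity-related GTPase, had 1697, 1365, 2327, 440 and 41 counts, a change around of -4.93 [-5.48, -4.55]. Iigp1, of the same family, had 695, 388, 215, 87 and 0 counts and was at least 124-fold lower around than on day 4 morning. B2m, the light chain of class I molecules, had 51933, 40209, 26577, 15487 and 9118 counts, and its change around was -2.08 [-2.11, -2.05].

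The adaptors and kinases between the sensors and interferon transcription were listed as 15 genes. Of 13 that passed, 6 (46.2%) were lower and 1 (7.69%) higher around, beside the 22.6% and 20.7% of all genes. Myd88, which serves Toll-like receptors, had 6373, 23558, 14122, 1091 and 1563 counts, with changes of -4.48 [-4.58, -4.40] away and -3.85 [-3.93, -3.78] around. Tmem173, the adaptor STING of the DNA sensor cGAS, had 581, 411, 867, 1854 and 2338 counts, higher away (2.11 [1.96, 2.28]) and around (2.56 [2.42, 2.72]). Ifi27l1, which carries the older RefSeq name of the unmatched Ifi27, had 1244, 952, 833, 387 and 195 counts, and it was not counted among the members.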

How the data were processed

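RNA of the laser-microdissected luminal layer had been amplified by the SMART-seq v4 kit, sequenced in pairs, aligned to GRCm38/mm10 with HISAT2 and counted with featureCounts of Subread 2.0.0. The authors deposited raw counts per gene in 1 table, without normalization. The annotation, strand setting and handling of multiple alignments are not given in the sources used here. The methods describe pooling of RNA from independent samples into 1 library for the microdissected Lif groups, and do not say whether this holds for the wild-type libraries. Low-input amplification adds spread that 1 library cannot show.

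Counts were scaled by TMM (edgeR 4.0.16 in R 4.3.3). Log2 CPM carried a prior count of 2, its differences gave the changes, a mean of 1 CPM or more by library totals was required of a gene, and a call is a change beyond 1, with no test. Intervals are exact Clopper-Pearson intervals (scipy 1.17.1). A fold against 0 was taken against 3 counts per library. RPKM used the gene length in the table. Python 3.11.15, pandas 2.3.3, numpy 2.4.6 and matplotlib 3.10.9 did the rest. The code was tested on simulated data.

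The members, lists and alternatives were chosen with earlier results of these data known. Counts in every library were given for members with a mean of at least 10 CPM and a change beyond 1 in some comparison, 33 in all. The counts of Ifit2, Mx1, Mx2, Trim25, Irf1, Cmpk2 and Psmb8 were given as ranges, and the changes of lower members were added after their values were seen. Alternatives were DESeq2 1.42.0 size factors, library totals with and without Rn45s and Lars2, a prior count of 0.5, no filter, a mean of at least 5 CPM, a change beyond 2, counting intervals wholly beyond the limit, leaving out the 3 Ifit genes that moved in opposite directions, and promoters without the bases after the start. The last, and day 3 morning or day 4 evening as the earlier library, were added after the data were seen. Of 41 promoter windows of members, 36 had their last 30 bases inside a GENCODE transcript.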

Additional observations from a re-analysis of the deposited data

Results flagged for a closer look

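Ifit3, Gm14446 and I830012O16Rik moved in opposite directions in the pair of day 5 libraries, each measured from day 4 morning. Ifit3 changed by 1.92 away from the embryo and by -4.74 around it on the log2 scale. Gm14446 changed by 1.98 away and by -6.58 around, where the second value depends on the prior count because the library had 0 counts. I830012O16Rik changed by 1.52 away and by -4.10 around. With 1 library in each place, the difference between the places was not tested. Ifit3 and I830012O16Rik share 521 stretches of 100 bases in their transcripts and are not independent measurements.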

How the results depend on the processing

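No paired analysis was possible because each condition has 1 library, and for the same reason no library could be left out within a condition. Among the 33 members with counts in every library, 86 changes were called, and none of these changed sign under DESeq2 size factors, library totals, totals without Rn45s and Lars2 or a prior count of 0.5, which kept 85, 81, 84 and 86 of the calls. From day 3 to day 4 morning the 5 higher and 6 lower members became 1 and 12 by library totals, 4 and 12 by totals without Rn45s and Lars2, and 0 and 1 with a change beyond 2, and 3 were higher by a counting interval wholly beyond the limit. From day 4 morning to evening the 8 higher and 1 lower became 1 and 0 with a change beyond 2, 5 were higher by the counting interval, and 0 were lower without the 3 Ifit genes. Away from the embryo the 8 higher and 14 lower became 4 and 4 with a change beyond 2, and 5 were higher without the 3 Ifit genes. Around it the 4 higher and 29 lower became 1 and 18 with a change beyond 2, and 2 were higher with either day 4 evening or day 3 morning as the earlier library. Around against away, the 3 higher and 23 lower became 0 and 11 with a change beyond 2, and 1 was higher by library totals with or without Rn45s and Lars2. Library totals moved the median of all genes to -0.29 from day 3 to day 4 morning, to 0.28 away and to -0.36 for around against away. Replicate spread is unknown, and below about 3 counts, as for Gm14446 and Ifit2 around the embryo, depth sets how large a fall can be shown.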
